A study of Homo sapiens with 2 samples.

Results

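AP-1 is a family of dimeric transcription factors, and its members were followed here in neuroblastoma cells with and without an induced HRASV12 oncogene. The members were the 8 genes FOS, FOSB, FOSL1, FOSL2, JUN, JUNB, JUND and ATF3, taken by symbol from the authors' gene table, which lists 36027 genes. Each symbol occurred once. The cells were SK-N-BE(2)-C, an established human neuroblastoma line, and both groups carried the inducible pIND-HRASV12 construct, which encodes a mutant HRAS that stays active. The induced group was 1 culture given doxycycline at 100 ng/ml over 13 days, profiled as 1 single-cell library of 666 cells. The control group was 1 culture kept without doxycycline over the same time, profiled as 1 library of 956 cells. Doxycycline and HRASV12 came together, so the 2 cannot be told apart here, and the labels do not say whether the line is 1 clone.

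AP-1 dimers form through a leucine zipper and bind short palindromic DNA elements in promoters and enhancers. FOS proteins need a JUN partner, whereas JUN proteins can also pair among themselves. FOS and FOSB are immediate-early genes that respond within minutes to growth factors and RAS signalling, whereas FOSL1 and FOSL2, which encode FRA-1 and FRA-2, respond later and persist under sustained ERK activity. In neuroblastoma, FOSL1 and FOSL2 are among the factors linked to the mesenchymal state, as opposed to the noradrenergic state marked by PHOX2A, HAND2 and GATA3.

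Promoter sequences are shown because the binding elements of the family also occur in front of its own genes. RefSeq (GRCh38.p14) promoter windows of 300 bases, from 250 before to 50 after a transcript start, were found for 7 of the 8 members, with 8 windows in all. FOSL1 was not among them. For FOS (chr14:75278578-75278773, plus strand) and FOSB (chr19:45467746-45467994, plus strand), the members that were lower in the induced library by the widest margin, the stretch before the annotated gene start is printed. Capitals mark TGACG, the core shared by cyclic AMP response elements, which began 64 bases before the transcript start in FOS and 60 bases before it in FOSB.
FOS: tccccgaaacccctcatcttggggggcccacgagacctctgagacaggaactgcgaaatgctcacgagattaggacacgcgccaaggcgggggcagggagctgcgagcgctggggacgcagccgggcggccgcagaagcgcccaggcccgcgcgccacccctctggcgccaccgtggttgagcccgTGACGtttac
FOSB: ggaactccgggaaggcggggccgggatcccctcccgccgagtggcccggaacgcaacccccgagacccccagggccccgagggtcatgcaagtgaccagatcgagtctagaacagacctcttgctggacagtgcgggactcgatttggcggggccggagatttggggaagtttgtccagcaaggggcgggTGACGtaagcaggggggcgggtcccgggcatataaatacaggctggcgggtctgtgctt

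Windows of 30 bases around a match are given for 5 other members, to let the elements be compared. Capitals mark TGANTCA, the AP-1 element, in FOSL2 (chr2:28392851-28392880, plus strand), TGACATCA in JUN (chr1:58784096-58784125, minus strand) and ATF3 (chr1:212565273-212565302, plus strand), TGACGTCA in JUND (chr19:18281804-18281833, minus strand) and TGACG in JUNB (chr19:12791337-12791366, plus strand).
FOSL2: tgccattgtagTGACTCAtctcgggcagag
JUN: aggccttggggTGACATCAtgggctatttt
ATF3: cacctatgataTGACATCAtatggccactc
JUND: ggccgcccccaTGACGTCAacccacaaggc
JUNB: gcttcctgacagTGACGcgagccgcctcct

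Both strands of every window were searched. TGANTCA occurred in the FOSL2 window alone among the members, starting 4 bases after the transcript start, and in 7.71% of all 35116 windows. TGACGTCA occurred in the JUND window alone, 200 bases before the start, and in 1.85% of all windows. The CArG box, the serum response factor element, was in none of the 8 windows and in 1.29% of all. Sequence outside the windows was not searched, so the absence does not show that FOS or another member lacks a CArG box further upstream. TGACG and TGACATCA were added after the sequences were seen. TGACG, which every TGACGTCA contains, was in 24.6% of all windows and in those of FOS, FOSB, FOSL2, JUN, JUNB and JUND. TGACATCA was in 2.61% of all windows and in those of JUN and ATF3. A match describes these letters and is not evidence of binding.

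The induced library held 80359736 counts with a median of 111582 per cell, and the control library 95350640 counts with a median of 85821. The libraries shared 0 cell barcodes. Each group being 1 library, replicates and tests were lacking, and the 95% intervals below cover counting error only. HRAS, the induced gene, stood at 161 CPM (summed counts scaled to the library total) with induction and 109 CPM without, and its counts do not separate the mutant from the cells' own HRAS. Of the noradrenergic markers, PHOX2A stood at 899 and 701 CPM, whereas TH had 92 and 345 counts. The induced library reached to lower values of mitochondrial percent (5th percentile 1.44, control 8.52) and of the nuclear RNA MALAT1 (33.6 CPM, control 238 CPM). Over 11 measured noradrenergic markers the median log2 ratio was -0.01, with none at least 1.5-fold higher and 3 lower, among them CHGA (446 and 1004 CPM). Of all genes that reached 10 CPM in either library, 10.3% were higher and 7.73% lower by this margin. Summed markers of immune, Schwann and erythroid cells, none of which reached 10 CPM, were at or under 9.71 CPM in both libraries. Those of fibroblasts stood at 85.2 CPM (induced) and 41.0 CPM (control), of epithelial cells at 46.6 and 27.2 CPM, and of endothelial cells at 97.6 and 110 CPM, with 2 of 7, 2 of 5 and 3 of 12 markers reaching 10 CPM and none of these 3 lists holding a gene at 0. EGFL7 (53.4 and 96.4 CPM) set the direction of the endothelial sum, whereas EMCN (11.4 and 2.03 CPM) and ESAM (10.7 and 3.22 CPM) were higher in the induced library. Their part in the results below was not tested, except where values without the cluster highest in endothelial markers are given.

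FOS and FOSB were lower and FOSL1 and FOSL2 higher in the induced library, whereas the 3 JUN genes and ATF3 differed by less than 1.5-fold. Thus 2 of the 8 members were at least 1.5-fold higher on the log2(CPM + 1) scale, beside 10.3% of the 9017 genes that reached 10 CPM in either library, and 2 of 8 were at least 1.5-fold lower, beside 7.73%. All 8 members reached 10 CPM, but FOSL1 did so through the induced library alone and FOSB through the control library alone, so these counts are a description. The median log2 ratio was -0.42 over the members and -0.04 over all genes measured. In these sums, fewer cells with a transcript and less transcript per cell cannot be told apart, which the values per cell further below address.

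**Figure D1:**
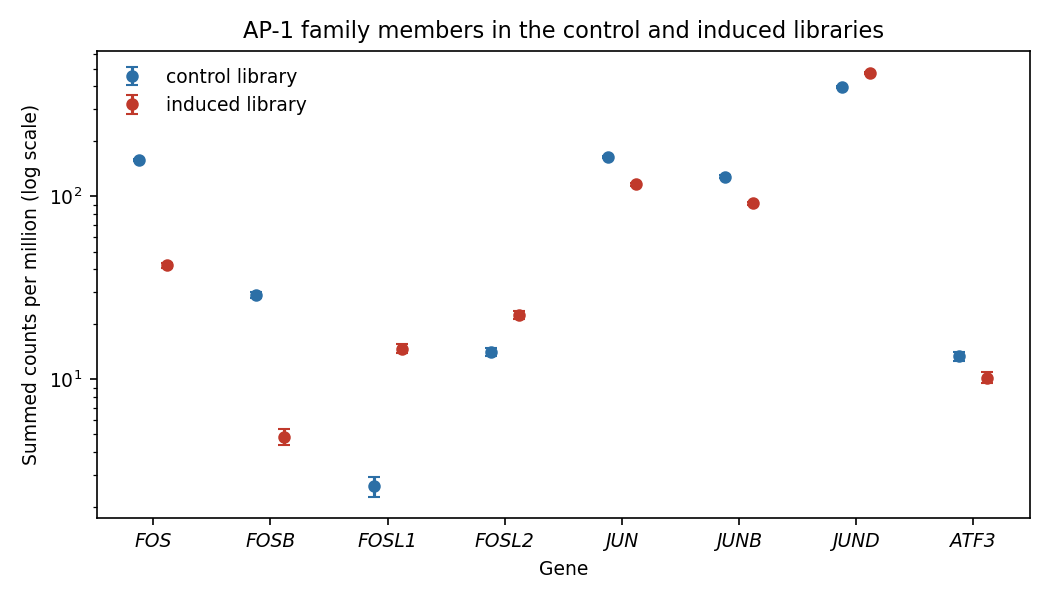
Summed CPM of each member (log axis) in the control library (blue) and the induced library (red). Points are 1 library each and bars are exact Poisson intervals, which are often smaller than the point. FOS and FOSB sit lower and FOSL1 and FOSL2 higher in the induced library, while JUN, JUNB, JUND and ATF3 lie closer together.

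FOS encodes c-Fos, the founding partner of JUN. It had 3370 induced and 15061 control counts, or 41.9 CPM (40.5 to 43.4) and 158 CPM (155 to 160). The level was 3.77-fold lower in the induced library (3.63 to 3.91), a log2 ratio of -1.89 that placed FOS 5th from the lowest of the 9017 genes. FOSB encodes a close relative that responds to the same stimuli. It had 391 and 2754 counts, or 4.87 CPM in induced and 28.9 CPM in control cells. This was 5.94-fold lower in the induced library (5.34 to 6.62), with a log2 ratio of -2.35, the 2nd lowest of all genes measured. The rank of FOSB is a description, since FOSB passed the 10 CPM limit through the control library alone.

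FOSL1 encodes FRA-1, which lacks the C-terminal activation domain of c-Fos. It had 1182 induced and 248 control counts, or 14.7 CPM (13.9 to 15.6) and 2.60 CPM (2.29 to 2.95). The ratio was 5.66 (4.93 to 6.51) and the log2 ratio 2.13, 72nd from the highest. The rank of FOSL1 is a description, since FOSL1 passed the 10 CPM limit through the induced library alone. FOSL1 was the member whose value depended most on which induced cells were counted. The 260 induced cells that lay under the 5th percentile of control cells in mitochondrial percent or MALAT1 held 71.6% of its induced counts and 46.2% of all induced counts, with FOSL1 at 22.8 CPM (21.3 to 24.4). In the other 406 induced cells FOSL1 stood at 7.77 CPM (6.96 to 8.64), against 2.62 CPM (2.29 to 2.99) in the 871 control cells within the same limits, a log2 ratio of 1.28. FOSL1 was thus higher in the induced library in both sets of cells, by a smaller margin within the limits. The limits on mitochondrial percent and MALAT1 were applied together, so these values do not say which of them FOSL1 went with.

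FOSL2 encodes FRA-2, the other FOS protein without that domain. It had 1811 and 1344 counts, or 22.5 CPM (21.5 to 23.6) and 14.1 CPM (13.4 to 14.9), a ratio of 1.60 (1.49 to 1.72) and a log2 ratio of 0.64. Its levels in induced cells within and below the limits lay close together, at 23.6 CPM (22.2 to 25.1) and 21.2 CPM (19.8 to 22.8). FOSL2 was near the 1.5-fold line, and its log2 ratio was 0.55 without the cluster of cells highest in endothelial markers. FOS had 43.7 CPM (41.8 to 45.8) within the limits and 39.8 CPM (37.8 to 41.9) below them, so its low induced level did not rest on the cells outside the limits. FOSB had 6.29 CPM (5.56 to 7.08) and 3.21 CPM (2.66 to 3.84).

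The JUN genes encode the partners that every FOS protein needs. JUN had 9344 induced and 15671 control counts, or 116 and 164 CPM, a ratio of 0.707 (log2 ratio -0.50). JUNB, which is often an antagonist of JUN in growth control, had 7367 and 12250 counts, or 91.7 and 128 CPM, a ratio of 0.714 (log2 ratio -0.48). JUND, the JUN gene least dependent on acute stimulation, had 38106 and 37720 counts, or 474 and 396 CPM, a ratio of 1.20 (log2 ratio 0.26). The 3 genes differed in direction and their sum differed little, at 682 CPM with induction and 688 CPM without, a ratio of 0.991 (0.9797 to 1.002). TMM and DESeq2 factors raised the induced over control scale by 0.11 and 0.16 (log2, before the added 1 CPM), which put this sum slightly higher in the induced library. ATF3 encodes a stress-induced member that can repress as a homodimer or pair with JUN. It had 821 and 1273 counts, or 10.2 and 13.4 CPM, a ratio of 0.765 and a log2 ratio of -0.36.

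The make-up of the family therefore differed between the libraries. FOS and FOSB together stood at 46.8 CPM with induction and 187 CPM without, a ratio of 0.250 (0.242 to 0.259), and FOSL1 and FOSL2 together at 37.2 and 16.7 CPM, a ratio of 2.23 (2.10 to 2.37). FOSL1 and FOSL2 made up 44.3% (Clopper-Pearson interval 43.1 to 45.5) of the 6754 FOS-family counts in the induced library and 8.20% (7.82 to 8.60) of the 19407 in the control library. The gain in FOSL1 and FOSL2 was smaller than the deficit in FOS and FOSB, and all 4 genes together stood at 84.0 CPM against 204 CPM, a ratio of 0.413 (0.402 to 0.425). FOS-family counts were 10.97% of FOS-family and JUN-family counts in induced cells and 22.8% in control cells. Within the JUN family, JUND gave 69.5% (69.1 to 69.9) of induced counts and 57.5% (57.1 to 57.8) of control counts. These are shares of 3' counts that were not scaled to transcript length, so they compare the libraries and do not rank the genes by abundance.

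To see whether the difference lay in few cells or in many, the counts of every cell were sampled down to 53000 (thinned), which kept 562 induced and 766 control cells. FOS was detected in 62.3% (58.1 to 66.3) of induced and 86.4% (83.8 to 88.8) of control cells, with a median of 1 and 6 counts per cell. The shares were 70.6% and 85.9% in all cells without thinning. FOSB was detected in 16.4% of induced and 49.1% of control cells (27.6% and 56.8% without thinning). The lower levels of both genes thus went with fewer cells that had a count, and for FOS also with a lower median. No cell type known to lack these transcripts was present, so the share that free RNA would give could not be measured.

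FOSL1 was detected in 24.9% of induced cells (21.4 to 28.7) and 12.3% of control cells (10.0 to 14.8), or 37.2% and 20.4% without thinning. Its induced counts were concentrated. The 42 induced cells with 3 or more FOSL1 counts were 7.47% of cells and held 69.5% of the library's thinned FOSL1 counts, and 2 control cells reached 3 counts. The highest cell had 20 counts under induction and 3 in the control, and the variance over the mean was 5.50 and 1.19. FOSL2 was spread more evenly, being detected in 61.6% of induced and 45.2% of control cells (77.5% and 58.3% without thinning) with a variance over the mean of 1.79 and 1.45. The 2 genes of this arm therefore differed in how their counts were distributed over induced cells.

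JUN was detected in 95.4% of induced and 95.3% of control cells with a median of 5 and 7 counts, JUNB in 95.6% and 95.3% with a median of 4 and 6, and JUND in 100% of both with a median of 24 and 20. Without thinning the shares were 94.6% and 92.8% for JUN, 95.05% and 95.7% for JUNB, and 99.1% and 100% for JUND. These 3 genes were present in nearly every cell of either library, with shifted medians. ATF3 was detected in 30.4% of induced and 41.8% of control cells (45.9% and 54.9% without thinning). In 1 induced cell there were 36 ATF3 counts, and the other induced cells held 88.7% of the library's thinned ATF3 counts.

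**Figure D2:**
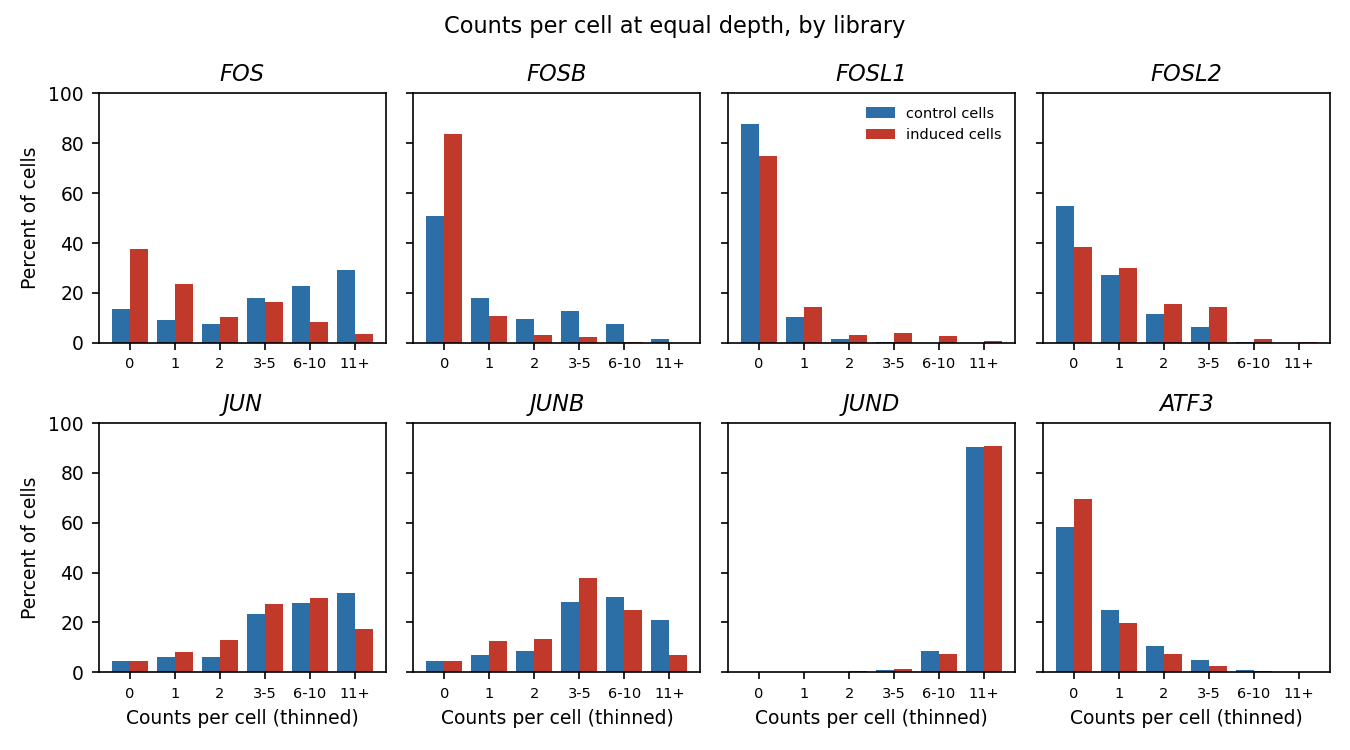
Percent of cells (vertical axis) in each class of counts per cell (horizontal axis) for the 8 members, after thinning to equal depth, in 766 control cells (blue) and 562 induced cells (red). Induced cells crowd at 0 and 1 count for FOS and at 0 for FOSB, and the few cells with 3 or more FOSL1 counts are nearly all induced.

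Counts of FOSL1 plus FOSL2 were set against FOS plus FOSB within each thinned cell. The FOSL1 and FOSL2 sum was the higher in 218 of the 562 induced cells (38.8%, 34.7 to 43.0) but 72 of the 766 control cells (9.40%, 7.43 to 11.7). The FOS and FOSB sum was the higher in 39.7% of induced (35.6 to 43.9) and 82.0% of control cells (79.1 to 84.6). The induced library was thus split between cells led by either arm, while the control library was led by FOS and FOSB in most cells. Counts of both arms were found in the same cell in 45.6% of induced and 44.8% of control cells. Cells with FOSL1 or FOSL2 and no FOS or FOSB count were 23.7% of induced and 6.01% of control cells, and cells with none of the 4 transcripts 11.2% and 6.27%. The median induced cell had 1 and the median control cell 7 counts of FOS plus FOSB, with 1 count of FOSL1 plus FOSL2 in both. Many cells thus sat at low counts, where 1 count sets the order. Without thinning, FOSL1 and FOSL2 led in 42.3% of all induced and 10.98% of all control cells. With FOSL1 alone set against FOS alone, FOSL1 was the higher in 13.7% of induced and 2.61% of control cells.

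**Figure D3:**
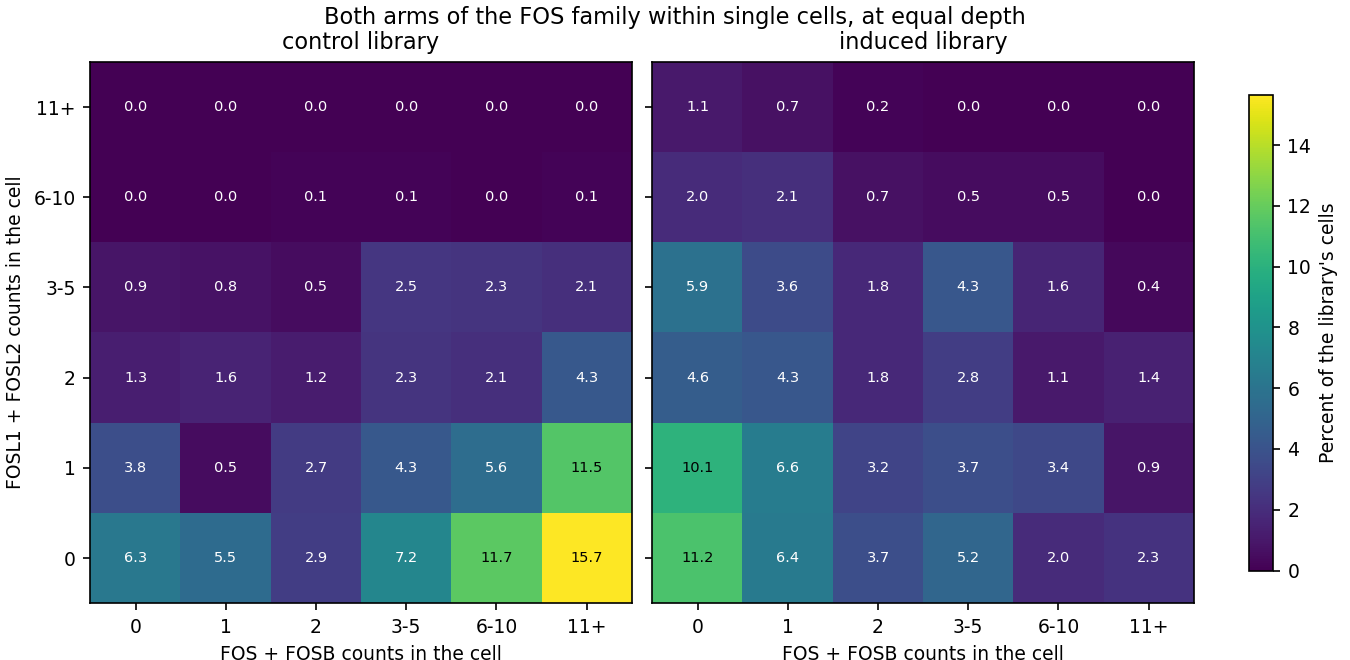
Percent of each library's thinned cells (colour and printed value) by FOS plus FOSB counts (horizontal axis) and FOSL1 plus FOSL2 counts (vertical axis), for control cells (left) and induced cells (right). The fullest class of control cells, 15.7%, had 11 or more FOS plus FOSB counts and no FOSL1 or FOSL2 count, and the fullest class of induced cells, 11.2%, had none of the 4 transcripts.

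Across cells of the same library, the FOS and FOSB level showed no steady order along the FOSL1 plus FOSL2 count. In induced cells with 0, 1, 2 and 3 or more FOSL1 plus FOSL2 counts, FOS and FOSB stood at 48.8, 44.6, 56.6 and 45.0 CPM (lowest bound 40.2, highest 63.8). In control cells of the same bins they stood at 186, 207, 225 and 174 CPM (lowest bound 161, highest 239). The 2 arms were therefore neither steadily raised together nor steadily opposed within a library. FOSL1 alone gave another picture among induced cells. FOS and FOSB stood at 51.5 CPM (48.6 to 54.6) in the 422 induced cells without a FOSL1 count, 42.0 CPM (36.6 to 47.9) in the 98 cells with 1 or 2, and 25.6 CPM (19.4 to 33.2) in the 42 cells with 3 or more. Binned otherwise, they stood at 38.0 CPM (32.3 to 44.3) with 1 FOSL1 count and 35.8 CPM (29.6 to 43.1) with 2 or more. Cell by cell the relation was weak. Spearman's rho with FOSL1 over the 562 induced cells was -0.083 for FOS and 0.016 for FOSB.

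Other members differed along the same FOSL1 bins of induced cells. JUN stood at 112, 138 and 199 CPM (181 to 219 in the last), FOSL2 at 20.7, 29.6 and 35.0 CPM (27.7 to 43.7), and JUND at 492, 449 and 373 CPM (348 to 400). JUNB stood at 93.4, 89.1 and 92.1 CPM. FOS alone stood at 46.1 CPM (43.4 to 49.0), 36.6 CPM and 22.5 CPM (16.7 to 29.6), whereas FOSB alone stood at 5.37, 5.39 and 3.14 CPM with overlapping intervals (1.26 to 6.48 in the last, from 7 counts). Induced cells high in FOSL1 were thus higher in JUN and FOSL2 and lower in FOS and JUND, and a FOSB difference was not detectable at this depth. These cells differed in other respects too. From the cells without FOSL1 to those with 3 or more counts, the median mitochondrial percent was 11.2 and 7.94. MALAT1 went the other way, at 3688 and 5942.5 CPM. In the same order, the median total count was 123516 and 147068, and endothelial markers stood at 78.5 and 150 CPM. The share scored as G1 was 59.5% and 83.3%. Of the 42 cells, 13 lay in the cluster highest in endothelial markers, and without that cluster FOS and FOSB stood at 52.7 CPM (49.7 to 55.9) in cells without FOSL1 and 26.7 CPM (19.1 to 36.2) in the 29 cells left. The part of mitochondrial percent, MALAT1, depth and phase in this relation was not tested.

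Clusters of cells were compared next, keeping in mind that the members were among the genes clustered and that a cluster mostly of 1 library may reflect that library. Of 9 clusters, numbered 0 to 8, those numbered 0, 2, 3 and 4 had at least 20 cells of each library, with 168 induced and 746 control cells together. Within these shared clusters FOS stood at 72.6 CPM in induced and 164 CPM in control cells, a ratio of 0.442 (0.416 to 0.469), and it was lower in induced cells in each of the 4. FOSB had a ratio of 0.263 (0.219 to 0.314) and FOSL2 one of 1.42 (1.25 to 1.61). FOSL1 stood at 3.00 and 2.42 CPM there, a ratio of 1.24 (0.884 to 1.71), from 48 and 187 counts. The FOS and FOSB difference was therefore present, though smaller for both genes than over all cells, where cells of both libraries fell in the same clusters, while a FOSL1 difference was not detectable over the 4 together at this depth. Cluster by cluster the FOSL1 ratio ran from 0.253 (0.0298 to 0.966, from 2 induced counts) in cluster 2 to 2.58 (1.38 to 4.58) in cluster 4. JUN had a ratio of 0.650 (0.618 to 0.684), JUNB 0.702 (0.664 to 0.742) and JUND 1.26 (1.23 to 1.29). ATF3 was higher in induced cells of these clusters, with a ratio of 1.28 (1.11 to 1.47), the reverse of its direction over all cells. By cluster its ratio was 0.763 (0.501 to 1.14) in cluster 0 and 1.37, 1.31 and 1.83 in clusters 2, 3 and 4.

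Cluster 5, with 325 induced and 8 control cells, held 65.3% of the induced library's FOSL1 counts, at 18.8 CPM in its induced cells. FOS stood at 35.8 CPM and FOSL2 at 21.5 CPM in the same cells. Cluster 6, with 66 induced and 14 control cells, was the one highest in endothelial markers (737 CPM summed) and held 16.9% of the induced FOSL1 counts. Its induced cells had FOSL1 at 39.9 CPM, FOSL2 at 48.7 CPM and JUN at 225 CPM, with FOS at 14.2 CPM and JUND at 208 CPM. The endothelial cadherin gene CDH5 stood at 38.6 CPM in cluster 6 and 0.383 CPM in all other cells, and the VEGF receptor gene KDR at 26.9 and 0.0177 CPM. Cluster 6 thus had the highest FOSL1, FOSL2 and JUN and the lowest FOS and JUND levels among induced cells of the 7 clusters with at least 20 of them. Its control cells had FOS at 121 CPM and FOSL1 at 6.93 CPM. Cluster 7, with 88 induced and 5 control cells, combined low FOS (27.6 CPM) with low FOSL1 (3.78 CPM) in its induced cells, so low FOS did not always come with high FOSL1. Cluster 8 was 13 induced cells with a median of 490923 counts and a median mitochondrial percent of 0.323, and it held 10.2% of the induced FOSL1 counts.

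**Figure D4:**
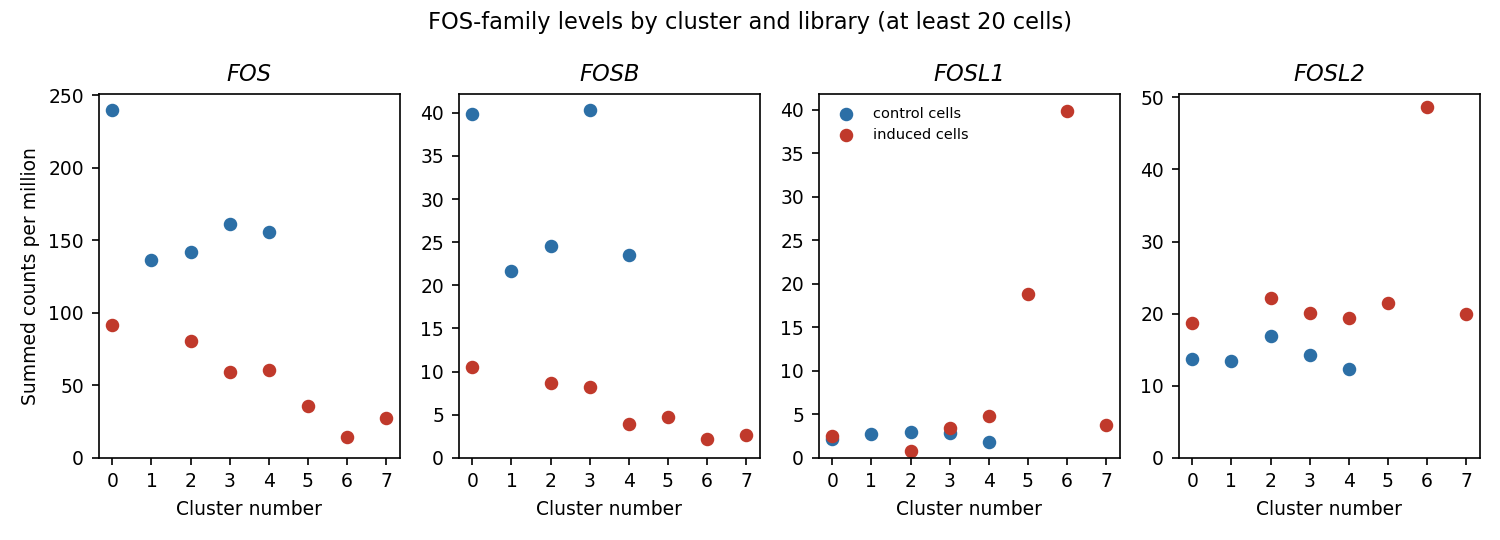
Summed CPM (linear axis from 0, a separate scale in each panel) of the 4 FOS-family genes in control cells (blue) and induced cells (red) of each cluster, shown where a cluster had at least 20 cells of that library. FOS and FOSB are lower in induced cells wherever both points are present, and FOSL1 is high in induced cells of clusters 5 and 6 and at or under 4.78 CPM in those of the rest.

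The libraries also differed in cell cycle phase, as scored from S and G2/M genes. G1 held 353, S 46 and G2/M 163 of the 562 induced cells (62.8% in G1), and these phases held 21.0%, 22.2% and 56.8% of control cells. Of the genes scored, 32 of 38 measured S genes and 42 of 50 G2/M genes had an induced level at least 1.5-fold under that of the control and none was that far above it. Of all genes measured, 7.73% were that far under and 10.3% that far above. FOS was lower in induced cells of each phase, with ratios of 0.213 (0.195 to 0.232) in G1, 0.349 (0.288 to 0.421) in S and 0.271 (0.244 to 0.302) in G2/M. FOSB had ratios of 0.153, 0.278 and 0.152. The deficit in FOS and FOSB was thus present in G1, S and G2/M cells alike. FOSL1 had ratios of 6.71 (4.313 to 10.998) in G1, 2.98 (1.60 to 5.52) in S and 2.12 (1.43 to 3.12) in G2/M, its induced level being 16.5 CPM in G1 and 5.79 CPM in G2/M. FOSL2 had log2 ratios of 0.88, 0.55 and 0.62. ATF3 had a ratio of 0.759 in G1, 0.720 in G2/M and 1.57 (1.02 to 2.37) in S. Phase scores can follow free RNA, whose part was not tested.

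Member levels were also read along the HRAS count of the cell. In induced cells with 0 to 3, 4 to 9 and 10 or more HRAS counts, FOS stood at 62.7 CPM (55.0 to 71.2), 42.0 CPM (38.8 to 45.4) and 36.7 CPM (33.2 to 40.5). FOSB stood at 7.97, 5.29 and 4.11 CPM. JUN stood at 142, 124 and 113 CPM. The 3 genes were lower in the bins with more HRAS, as was FOSL2, but cell by cell the relation was weak. Over the 562 cells Spearman's rho with HRAS was -0.063 for FOS, -0.10 for FOSB, -0.074 for JUN and -0.11 for FOSL2. In control cells FOS stood at 178, 162 and 153 CPM and FOSB at 37.0, 28.8 and 28.6 CPM. FOSL1 stood at 15.7 CPM (11.9 to 20.2), 11.5 CPM (9.86 to 13.3) and 13.5 CPM (11.4 to 15.9) in induced cells and thus had no steady order, and FOSL2 stood at 34.3, 22.6 and 20.5 CPM. FOS in each induced bin, the 71 cells lowest in HRAS included, lay below each control bin.

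The members differed in which genes varied with them from cell to cell. The measure was Pearson's r of log counts over the thinned cells of a library, at equal depth, among 8549 genes in control and 8466 in induced cells, and it is a description with no test. In the 766 control cells FOS varied most closely with FOSB (r = 0.62), EGR1 (0.60), IER2 (0.58), JUNB (0.54) and DUSP1 (0.48). EGR1 and IER2 are immediate-early genes, and DUSP1 is a phosphatase that switches off MAP kinases. JUNB was closest to IER2 (0.58), FOS (0.54), EGR1 (0.52) and ARC (0.48), an activity-regulated gene of neurons, and JUN to IER2 (0.46), FOS (0.44), EGR1 (0.42) and KLF6 (0.39), a zinc finger factor. In control cells the FOS, JUN and immediate-early genes thus formed 1 group by this measure, which held neither FOSL1 nor FOSL2. The part of cell handling at harvest in this group was not tested.

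In the 562 induced cells the same pairs had lower values. FOS had r = 0.41 with EGR1 and 0.40 with FOSB, and no other gene reached 0.3 with it. JUNB had 0.44 with IER2 and 0.38 with EGR1, and JUN had 0.33 with IER2. Counts of FOS and FOSB were also lower in induced cells, and the part of this in the lower values was not tested. FOSL1 had its closest genes at r = 0.61 with VEPH1, 0.59 with TNFRSF12A, 0.58 with PLAUR, 0.56 with EVA1A and 0.56 with FLNC. PLAUR encodes the urokinase receptor, TNFRSF12A the receptor of the cytokine TWEAK and FLNC the actin crosslinker filamin C. Each of the 5 was itself higher in the induced library, with log2 ratios of 3.88 for VEPH1, 3.40 for TNFRSF12A, 2.43 for PLAUR, 3.06 for EVA1A and 1.11 for FLNC. The genes compared in induced cells were those with at least 10 CPM in that library. VEPH1, PLAUR, EVA1A and FLNC were under 10 CPM in the control library, so this direction is a description. In control cells no gene reached 0.3 with FOSL1, which had few counts there, and none did with FOSL2 or ATF3 in either library.

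**Figure D5:**
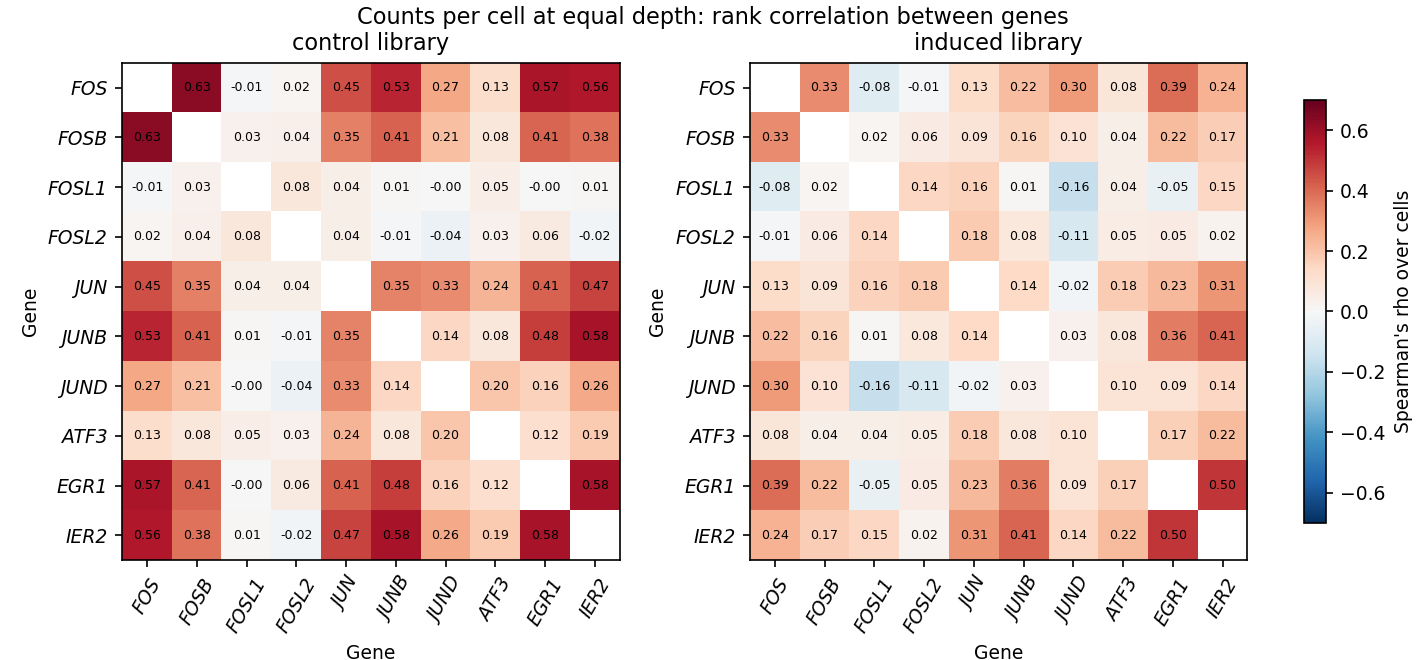
Spearman's rho between counts per cell of the members, EGR1 and IER2 over thinned cells, for control cells (left) and induced cells (right). The block of FOS, FOSB, JUN, JUNB, EGR1 and IER2 is strong in control cells and weaker in induced cells. FOSL1 and FOSL2 stand outside it in control cells. In induced cells their values with JUN (0.16 and 0.18) are close to that of FOS with JUN (0.13). Those with FOS (-0.08 and -0.01) and with JUNB (0.01 and 0.08) are weaker.

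Genes around the members were read from 6 lists, as counts and medians beside those of all genes measured. Of all genes measured, 10.3% were at least 1.5-fold higher and 7.73% lower, with a median of -0.04. Of 19 measured kinases and factors upstream of AP-1, none was at least 1.5-fold higher and 1 was lower, with a median log2 ratio of -0.01. MAPK8, which encodes the JUN kinase JNK1, stood at 32.7 CPM (induced) and 21.8 CPM (control), and RPS6KA5, which encodes the chromatin kinase MSK1, at 13.8 and 21.4 CPM. MAP2K2, the ERK kinase MEK2, stood at 250 and 209 CPM, and MRTFB, a serum response factor coactivator, at 12.7 and 18.4 CPM. Transcripts of the upstream pathway therefore differed little as a list.

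Of 9 measured regulators of AP-1 turnover and of MAP kinases, 3 were at least 1.5-fold higher and none lower. The median was 0.16, and the shares over all genes measured were 10.3% higher and 7.73% lower. The highest were DUSP6 at 20.6 and 4.42 CPM and DUSP5 at 19.8 and 6.62 CPM, both encoding ERK phosphatases. Both passed the 10 CPM limit through the induced library alone, so their place in the count is a description. ERK activity was not tested. The lowest were ITCH, a JUN ubiquitin ligase, at 17.0 and 25.1 CPM, and DUSP1 at 30.8 and 39.1 CPM. DUSP5 and DUSP6 thus differed from FOS in direction.

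Of 10 measured immediate-early genes outside AP-1, 2 were at least 1.5-fold higher and 3 lower, with a median of -0.10. The shares over all genes measured were 10.3% higher and 7.73% lower. EGR1 was lower, at 74.6 CPM with and 146 CPM without induction, as was BTG2, an antiproliferative p53 target, at 9.98 and 38.7 CPM. BTG2 passed the 10 CPM limit through the control library alone, so its place in the count is a description. PPP1R15A, which encodes the stress protein GADD34, was higher at 73.1 and 18.8 CPM, as was the kinase gene SGK1 at 81.8 and 26.5 CPM. The list was therefore split, and low levels were not shared by all immediate-early genes. Of 11 heat shock genes, which can mark stress during cell harvest, none was higher and 1 was lower. This was HSPD1 at 795 and 1225 CPM, and the median was -0.06. With 1 culture per group, a difference in harvest cannot be told apart from induction, for FOS, FOSB and the immediate-early genes as well.

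Of 15 measured bZIP factors outside the family, 4 were at least 1.5-fold higher and none lower, with a median of 0.28. For this list and the next, the shares over all genes measured were 10.3% higher and 7.73% lower. DDIT3, the stress factor CHOP, stood at 124 CPM (induced) and 29.5 CPM (control), and ATF5 at 23.7 and 12.5 CPM. The lowest were BACH1, a repressor that pairs with small MAF proteins, at 7.38 and 10.0 CPM, and ATF1, of the CREB group, at 22.6 and 26.8 CPM. Of 11 measured AP-1 target genes, 9 were at least 1.5-fold higher and none lower, with a median of 1.69. VIM, the intermediate filament vimentin, stood at 1510 and 182 CPM. The lowest of the list were VEGFA at 65.4 and 88.1 CPM and HMGA1 at 273 and 312 CPM. PLAUR, which varied with FOSL1 in induced cells, is also in this list. Several genes of the list, PLAUR included, passed the 10 CPM limit through the induced library alone. TGANTCA was found in a promoter window of 5 of the 17 target genes that had one, and in 9.37% of all genes with one.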

How the data were processed

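Droplet 3' libraries (10x Genomics Chromium) were made from 1 induced and 1 control culture, per the labels. Kallisto and bustools made the counts, as far as the submitters' processing notes list tools. The sources used here do not give versions, genome build, annotation, cell filter or doublet handling. Values in the deposited table are whole-number counts for 36027 genes and 1622 cells, and whether a count is always 1 molecule is not given. The authors' cell table gives each cell's type, its total count, its percent of mitochondrial counts and a singlet mark for all 1622 cells, per the file headers.

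Counts were summed per library and scaled to the library total (CPM). Log2 ratios used 1 CPM added to both levels, so low genes appear less changed than they were. A gene counted as measured from 10 CPM up in either library. Levels have exact Poisson, ratios exact conditional and shares Clopper-Pearson intervals at 95%, for counting error only. A count of 0 would allow 3 counts, or 0.0373 CPM (induced) and 0.0315 CPM (control). Values per cell used cells thinned to 53000 counts, which left out 104 induced and 190 control cells. Phases and Leiden clusters came from scanpy 1.11.5 (2000 variable genes, 30 components, 15 neighbours, resolution 0.5). edgeR 4.0.16 and DESeq2 1.42.0 gave scaling factors only. The calculation was tested on simulated data.

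The members and lists were chosen with earlier results of these data known. Named genes are the 8 members, HRAS, the 2 highest and 2 lowest measured genes of a list, and the 5 genes most like a member with r of at least 0.3. For the lists of heat shock, cell cycle and cell type genes, some of these are summarised and not named. A few genes that fall under this rule are not reported here. TH, CDH5 and KDR are given as defining markers of their lists, and were picked with their values known.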

Additional observations from a re-analysis of the deposited data

How the results depend on the processing

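The 8 log2 ratios were recomputed under 13 alternatives, 2 of them chosen after seeing the data: without the induced cell highest in ATF3, and in the shared clusters alone. FOS ranged from -1.99 to -1.17, FOSB from -2.55 to -1.78, FOSL1 from 0.23 to 2.45, FOSL2 from 0.48 to 0.79, JUN from -0.62 to -0.34, JUNB from -0.58 to -0.32, JUND from 0.17 to 0.42 and ATF3 from -0.48 to 0.34. ATF3 changed sign in the shared clusters, and no other member changed sign. The count of members at least 1.5-fold higher was 1 with totals without ribosomal protein and mitochondrial genes, without the cluster highest in endothelial markers and with a pseudocount of 5 CPM, where FOSL2 fell under the line. It was also 1 within the limits on mitochondrial percent and MALAT1, where FOSL1 fell under 10 CPM but kept a log2 ratio of 1.28. At 50 CPM in either library, 0 were higher and 1 was lower. The count at least 1.5-fold lower was 3 with totals without ribosomal protein and mitochondrial genes, where JUN passed the line (log2 ratio -0.589). It was also 3 without the cluster highest in endothelial markers (JUN at -0.586). The FOSL1 and FOSL2 share of induced FOS-family counts was 42.9% as a mean of per-cell CPM and after thinning, 42.5% without the 5% of cells with the most counts, 38.6% within the limits, 40.9% without the endothelial-marker cluster and 22.1% in the shared clusters. The control share was 7.79% without the 5% of cells with the most counts, 7.77% after thinning and 7.76% in the shared clusters. Cells led by FOSL1 and FOSL2 were 30.3% of induced cells at 20000 counts, and with FOSL1 against FOS alone 13.7% of induced and 2.61% of control cells. No paired analysis was possible because each group was 1 library. Of 52 recomputed counts and shares, 34 stayed within 1.5 times the count or within the interval of the share, the counts of 3 included. Having 1 culture per group limits every value above.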

Other observations

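Some control cells had more than 1 FOSL1 count after thinning, with 2 counts in 12 cells and never more than 3. The 14 control cells with 2 or more thinned FOSL1 counts had FOS and FOSB at 344 CPM (303 to 389) and ATF3 at 60.6 CPM (44.2 to 81.2), against 194 and 13.1 CPM in the 672 control cells without FOSL1. Of their ATF3 counts, 32 of 45 came from the 2 cells with 3 FOSL1 counts. Those 2 cells had FOS and FOSB at 56.6 CPM (20.8 to 123, from 6 counts). The 8 control cells in cluster 5 had FOSL1 at 17.2 CPM, from 10 counts, beside 18.8 CPM in the induced cells there. Their FOS stood at 60.3 CPM.

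In plain counts, ATF3 had an r of 0.73 with EGR1 over the 562 induced cells. Without the 1 cell with 36 ATF3 and 191 EGR1 counts it was 0.19.

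Cells with 6 or more of the 8 members detected after thinning were 29.2% of induced and 44.3% of control cells, and all 8 were detected in 7 and 13 cells. The median was 5 members in both libraries.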
